A study of Danio rerio with 8 samples.

Results

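The histone genes of zebrafish primordial germ cells (PGCs, from which eggs and sperm later arise) were followed in 8 libraries, together with the linker histones and the proteins that bind the end of histone mRNAs. They were taken as every entry of the deposited expression table whose symbol starts with hist1h, hist2h, h1f, h2af, h2ax, h2az, h3f3, h3-3 or slbp, is h1m, or is h1- followed by a digit. This gave 57 of 31934 entries, which carry 24 of 31202 distinct symbols. Of these entries 44 (12 symbols) bear the names of replication-dependent histones, 4 are H2A variants, 4 (3 symbols) are genes of the H3.3 type, 3 are linker histones and 2 are stem-loop binding proteins. A histone gene listed under any other kind of name is not covered. The donors were wild type or homozygous for a pigu mutation (pigu_homo or pigu-/- in the labels), and were taken at the shield stage of early gastrulation and at the bud stage, when gastrulation ends. Tuebingen and India fish are named as the wild type strains and Tg(kop:EGFP-nanos 3'UTR) as a transgenic line, while the treatment notes describe injection of GFP mRNA with the nanos1 3'UTR into zygotes of both genotypes. All groups therefore carried the injected label. Embryos were dissociated and their fluorescent cells picked out manually. Each of the 4 groups had 2 libraries, numbered as replicates, and SMART-seq2 was used for all 8. The pigu allele, the number of embryos behind a library and the number of cells are not stated, and a note on RNA extraction speaks of oocytes.

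Nucleosomes are built from H2A, H2B, H3 and H4, and linker histones bind the DNA between them. Replication-dependent histone genes lie in repeated clusters, are expressed in S phase, and in animals give mRNAs that usually end in a stem-loop, bound by SLBP, in place of a poly(A) tail. Variants such as H3.3 and H2A.Z are made throughout the cell cycle from polyadenylated mRNAs, and fast cleaving embryos start from maternal stores of histones and of a special linker histone. SMART-seq2 primes on poly(A), so the levels given for replication-dependent genes are those of the molecules this method captures. Their copies are nearly identical, and how reads that align in several places were treated is not given in the sources used here, so the split of reads between copies is uncertain.

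The libraries differed in how much of the transcriptome they held. Genes with FPKM (fragments scaled by transcript length and by library size) of at least 1 numbered 5878 to 8338 in replicate 1 of wild type shield, of mutant shield and of mutant bud, and 11460 to 13007 in the other 5. Entries of the mitochondrial genome took 17.3% to 72.2% of the total FPKM. The mutated gene pigu stood at 11.5 and 15.0 FPKM in the wild type at shield and 0.81 and 10.95 in the mutant at shield. At bud it stood at 2.78 and 14.6 in the wild type, with 0 and 7.32 in the mutant. Both mutant values thus lay below both wild type ones at shield, with 10.95 close to 11.5, and the genotypes overlapped at bud. Its mRNA level alone therefore does not separate the genotypes at both stages. Of 13 germ cell markers, at most 4 were listed at 0 in a library. Their summed FPKM was 6343 and 23303 in the wild type at shield, 4650 and 34030 in the mutant at shield, 8632 and 15745 in the wild type at bud, with 16598 and 3417 in the mutant at bud. In no mutant group did the pair of libraries lie apart from wild type in this sum, and mutant bud replicate 2 had the lowest sum. nanos3 was the largest part of the sum in every library, at 1518 to 20924 FPKM. Single markers differed from the sum. ddx4, tdrd6, tdrd7a, dazl, piwil1, ca15b, grip2a, rgs14a and celf1 were lower in mutant shield replicate 1 than in mutant bud replicate 2. For dnd1, nanos3, buc and cxcr4b mutant bud replicate 2 was the lower of this pair. Mutant bud replicate 2 was highest for the 10 neural markers found in the table, at 1083 FPKM against 41.7 to 241 elsewhere. Enveloping layer markers summed to 1043 there and to 627 in mutant shield replicate 1, against 21.3 to 74.7 in the other 6 libraries. In mutant bud replicate 2 mesoderm and axis markers summed to 831, against 101 to 782 elsewhere. Epidermis markers were lowest there, at 88.4 against 118 to 395. Endoderm and yolk markers summed to 407, within the 267 to 707 of the other libraries.

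The summed FPKM of variant and linker histones exceeded that of replication-dependent ones in every library, among the molecules that poly(A) priming captures. The replication-dependent entries included 24 of H4 and 17 of H2A but only 1 of H3 and 1 of H2B. Histone genes under other kinds of name are in neither sum, so the comparison holds for the entries taken here. Summed over entries, variants and linker histones reached 5890 and 4839 FPKM in the wild type at shield, 3876 and 5825 in the mutant at shield, 4802 and 3455 in the wild type at bud, with 3172 and 4481 in the mutant at bud. Replication-dependent entries summed to 2104 and 586, 2272 and 927, 906 and 582, and 1672 and 347 in the same order. The variant and linker share of all histone FPKM was therefore lowest in mutant shield replicate 1, at 63.0%, and highest in mutant bud replicate 2, at 92.8%. These levels are per length of transcript.

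The 3 libraries with the fewest detected genes had the 3 highest replication-dependent sums (1672 to 2272 FPKM), against 347 to 927 in the other 5. With the mitochondrial entries removed and each library rescaled to the same total, the same 3 libraries remained highest, at 3488 to 10597.5 against 582 to 1883. For variants and linker histones 1 of these 3 libraries, wild type shield replicate 1, was the highest of the 8 in FPKM and another, mutant bud replicate 1, the lowest. After the same rescaling mutant shield replicate 1 (18076) and wild type shield replicate 1 (16466) led for variants and linker histones too, against at most 11836 elsewhere, and mutant bud replicate 1 stayed lowest (6618). The part of library quality in these sums was not tested.

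**Figure D1:**
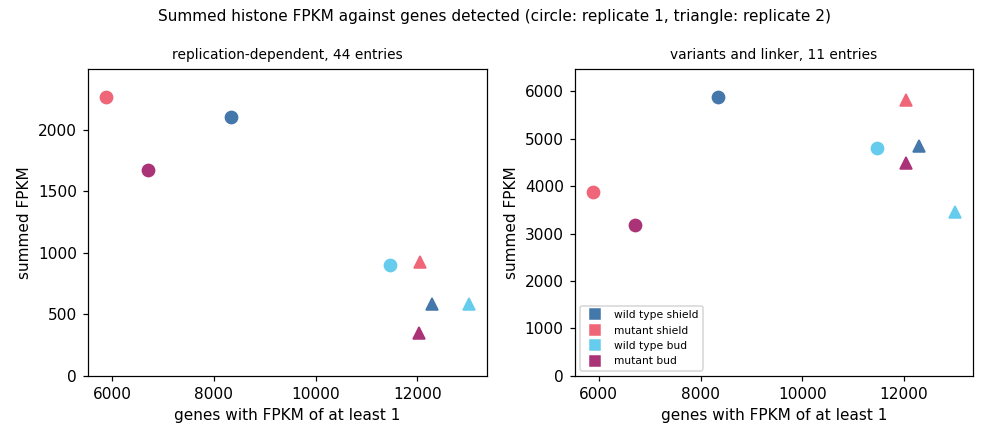
Summed FPKM of replication-dependent entries (left) and of variant and linker entries (right) in each of the 8 libraries, against the number of genes with FPKM of at least 1. The 3 libraries with 5878 to 8338 detected genes had replication-dependent sums of 1672 to 2272, above the 347 to 927 of the other 5.

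H3.3 led the list. h3f3b.1, one of the genes for the H3.3 protein that is deposited outside replication, had the highest level of all 57 entries in each of the 8 libraries. Its FPKM were 2899 and 2313 in the wild type at shield, 2127 and 3115 in the mutant at shield, 1511 and 1001 in the wild type at bud, with 1648 and 2556 in the mutant at bud. Its mean of 2146 placed it at percentile 99.9 of the 13984 genes that passed the filter (FPKM of at least 1 in at least 2 libraries). Both wild type bud libraries lay below both wild type shield libraries and below both mutant bud libraries. A second entry with the same symbol stood at 31.4 to 228 FPKM, with its highest value in mutant bud replicate 2.

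h3f3c, also of the H3.3 type, stood at 1.19 and 36.8 FPKM in the wild type at shield, 1.22 and 31.3 in the mutant at shield, 31.9 and 45.0 in the wild type at bud, with 12.2 and 135 in the mutant at bud. It was near 1 in the shield libraries of replicate 1 and highest in the library with the most neural marker RNA, and the groups overlapped in each comparison. h3f3d stood at 10.5 and 11.6 in the wild type at shield, 15.1 and 16.4 in the mutant at shield, 11.9 and 6.11 in the wild type at bud, with 3.08 and 18.8 in the mutant at bud.

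The pair of H2A.Z genes followed. H2A.Z marks nucleosomes at promoters and replaces H2A outside replication. h2az2a stood at 661 and 893 FPKM in the wild type at shield, 478 and 1114 in the mutant at shield, 1034 and 897 in the wild type at bud, with 595 and 473 in the mutant at bud. h2az2b stood at 891 and 586, 370 and 678, 1218 and 765, and 284 and 927 in the same order. Neither gene led the other throughout, since h2az2b was higher in 3 of the 8 libraries. Their sum was lowest in replicate 1 of mutant shield (848) and of mutant bud (879) and highest in wild type bud replicate 1 (2252). h2ax, whose product is phosphorylated at DNA breaks, stood lower, at 83.9 and 33.1 in the wild type at shield, 43.2 and 43.6 in the mutant at shield, 19.1 and 12.6 in the wild type at bud, with 52.1 and 32.9 in the mutant at bud. Its values in the wild type at bud lay below those of all 6 other libraries. h2ax1 did not pass the filter and was read in 1 library, wild type bud replicate 1, at 0.62.

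Among linker histones the maternal form dominated. h1m, the linker histone that zebrafish eggs store and that PGCs keep, stood at 1291 and 870 FPKM in the wild type at shield, 810 and 735 in the mutant at shield, 852 and 610 in the wild type at bud, with 540 and 68.5 in the mutant at bud. Both mutant libraries lay below both wild type libraries at each stage, and both bud libraries below both shield libraries in each genotype. Of all tested genes, 12.2% were lower in the mutant in this way at shield, 28.9% at bud and 4.45% at both stages. Lower at bud than at shield were 9.88% in wild type and 8.76% in the mutant. After rescaling without the mitochondrial entries the shield groups overlapped, with 3609 and 1861 for wild type beside 3778 and 1493 for the mutant. The bud groups stayed apart, with 1728 and 1223 against 1128 and 115. In bulk samples fewer cells of a type and less RNA per cell cannot be told apart. The lowest value belonged to mutant bud replicate 2, the library with the lowest summed germ cell markers. Some of these markers were lower still in mutant shield replicate 1, where h1m stood at 810 FPKM. The part of other cells in these libraries was not tested.

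The somatic linker histone h1-10, the H1.X form, was low. It stood at 0 and 0.41 FPKM in the wild type at shield, was listed at 0 in both mutant shield libraries and in mutant bud replicate 1, and reached 9.12 and 4.70 in the wild type at bud and 13.6 in mutant bud replicate 2. Each bud library except mutant bud replicate 1 thus held more of it than any shield library. Many other genes were also listed at 0 in these libraries. The share of all tested genes at 0 was 34.4% in wild type shield replicate 1 and 53.3% in mutant shield replicate 1. It was 49.3% in mutant bud replicate 1, but 10.7% in mutant shield replicate 2 and 5.64% in wild type shield replicate 2.

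**Figure D2:**
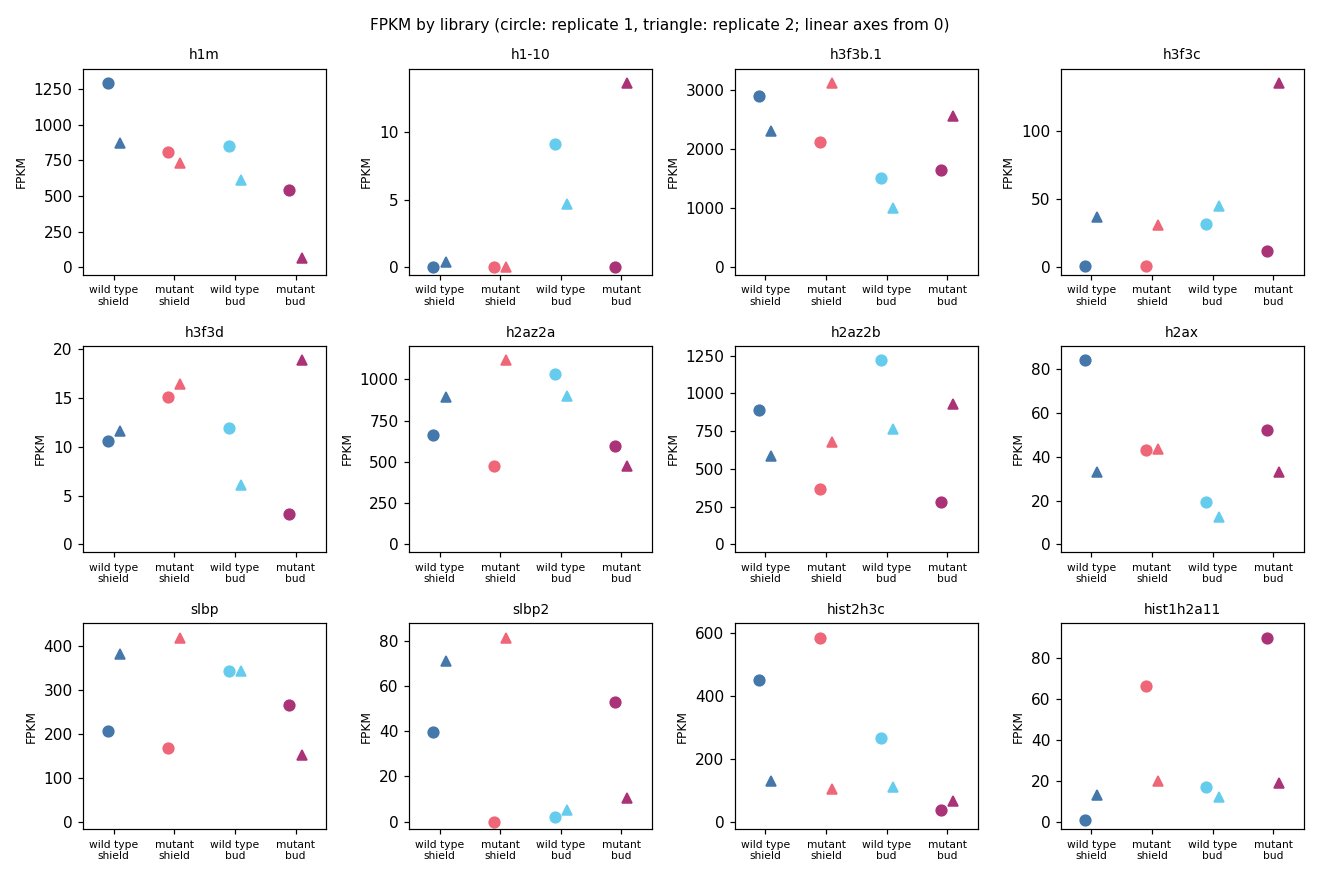
FPKM of 12 named genes in each library, on linear axes that start at 0, by group, with circles for replicate 1 and triangles for replicate 2. h1m is highest in the wild type at shield (1291 and 870) and lowest in the mutant at bud (540 and 68.5), h1-10 is at or below 0.41 in the 4 shield libraries, and slbp2 is at 2.29 and 5.01 in the wild type at bud.

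Of the stem-loop binding proteins, slbp stood above slbp2 in every library. SLBP binds the 3' stem-loop of replication-dependent histone mRNAs and serves their processing and translation. slbp stood at 207 and 381 FPKM in the wild type at shield, 168 and 418 in the mutant at shield, 342 and 344 in the wild type at bud, with 266 and 152 in the mutant at bud. slbp2, whose counterpart in Xenopus is confined to oocytes and stores histone mRNA there, stood at 39.8 and 71.3, 0 and 81.4, 2.29 and 5.01, and 52.9 and 10.7 in the same order. In wild type both bud libraries lay below both shield libraries for slbp2, whose share of the summed slbp and slbp2 FPKM was 16.1% and 15.8% at shield and 0.66% and 1.44% at bud. In the mutant that share was 0% and 16.3% at shield and 16.6% and 6.54% at bud, and the stages overlapped.

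Replication-dependent histones were spread over many entries, each below h3f3b.1 in level. By mean FPKM the tested symbols ranged from percentile 59.5 of all tested genes (hist1h2a2) to 97.6 (hist2h3c). The symbol hist1h4l, for H4, stood on 24 entries, whose mean FPKM ranged from 1.37 to 132, and 10 of the 24 were above 0 in all 8 libraries. The entry of highest mean stood at 400.3 and 56.9 FPKM in the wild type at shield, 183 and 151 in the mutant at shield, 70.4 and 69.0 in the wild type at bud, with 92.5 and 32.05 in the mutant at bud. Both mutant bud values lay below both of mutant shield. Summed over the 24 entries, H4 stood at 1249 and 288 FPKM in the wild type at shield, 1145 and 498 in the mutant at shield, 361 and 307 in the wild type at bud, with 794 and 153 in the mutant at bud. The 17 H2A entries (8 symbols) summed to 387 and 167, 526 and 307, 269 and 159, and 717 and 124 in the same order. Wild type and mutant overlapped for both sums at both stages, and replicate 1 was above replicate 2 in each group. Wild type shield replicate 1 had the highest ratio of H4 to H2A, at 3.23, and mutant bud replicate 1 the lowest, at 1.11.

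H3 had 1 entry, hist2h3c, which stood at 453 and 129 FPKM in the wild type at shield, 586 and 104 in the mutant at shield, 268 and 110 in the wild type at bud, with 35.8 and 67.4 in the mutant at bud. Mutant bud replicate 1, which led the H2A sum, was thus the lowest library for hist2h3c. H3.3 made up 78.8% to 97.9% of the summed FPKM of hist2h3c and the H3.3 entries. H3 genes under other kinds of name are not in that sum. The single H2B entry, hist1h2ba, stood at 15.2 and 1.13 in the wild type at shield, 15.6 and 18.2 in the mutant at shield, 7.41 and 5.78 in the wild type at bud, with 125 and 1.79 in the mutant at bud. It was highest in mutant bud replicate 1 and low in the other library of that group. hist2h2l did not pass the filter and was read at 0.24 in wild type bud replicate 2 and 0.40 in mutant bud replicate 2.

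**Figure D3:**
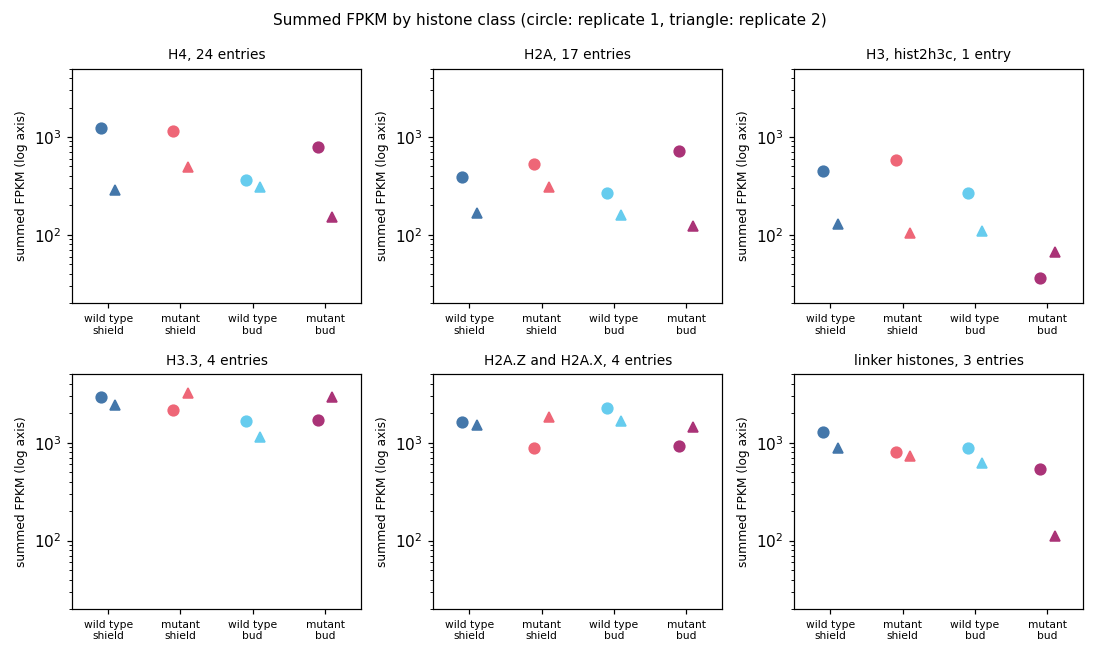
Summed FPKM of 6 histone classes in each library on a log axis, by group, with circles for replicate 1 and triangles for replicate 2. H4 and H2A sums are higher in replicate 1 of each group, and H3.3 stands between 1156 and 3255 in all 8 libraries.

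H2A is given here by the entry of highest mean for each symbol. hist1h2a10 stood at 51.4 and 9.72 FPKM in the wild type at shield, 97.0 and 14.5 in the mutant at shield, 26.5 and 13.5 in the wild type at bud, with 96.4 and 8.28 in the mutant at bud. hist1h2a6 stood at 65.3 and 17.3, 61.8 and 51.2, 20.9 and 23.0, and 19.5 and 18.01 in the same order. The H2A symbols thus had no common order of groups. hist1h2a4 stood at 45.3 and 17.1, 28.7 and 38.4, 15.9 and 10.9, and 54.9 and 4.10. hist1h2a3 stood at 48.4 and 11.1, 52.5 and 16.2, 36.02 and 5.69, and 24.5 and 8.42. Replicate 1 was above replicate 2 in each group for hist1h2a10 and hist1h2a3, as for the sums. hist1h2a1 and hist1h2a2 had means of 12.8 and 11.5, and hist1h2a11 and hist1h2a5 are described with the genotype comparison.

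**Figure D4:**
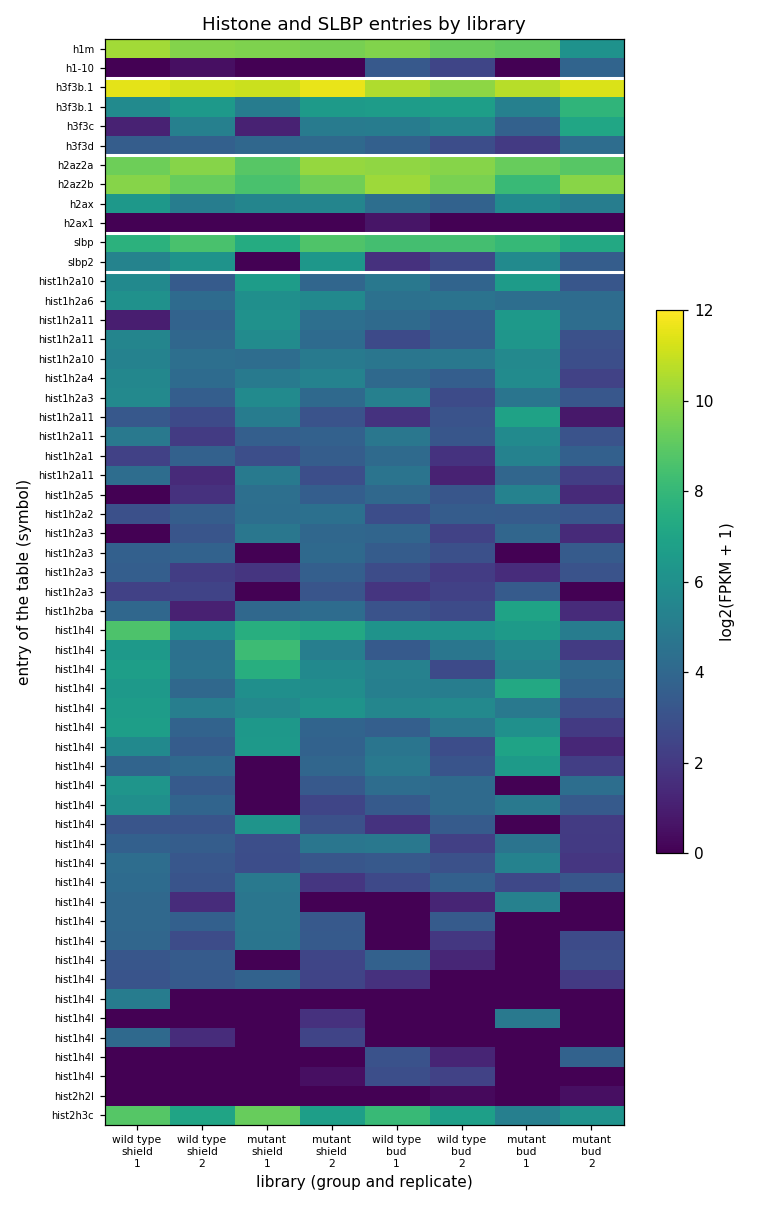
log2(FPKM + 1) of 56 of the 57 entries (rows, by symbol) in the 8 libraries (columns), with white lines between linker histones, H3.3, H2A variants, stem-loop binding proteins and replication-dependent histones. h3f3b.1 is the brightest row in every library, while the 24 entries of hist1h4l range from a mean FPKM of 132 to 1.37, with 9 of them at 0 in the first mutant library at shield and 10 in the first at bud.

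Genotype at shield compares PGCs with and without the pigu mutation in early gastrulation. The H2A genes hist1h2a11, hist1h2a5 and hist1h2a2, the H2B gene hist1h2ba and the H3.3 gene h3f3d stood higher in both mutant libraries than in both wild type ones, and h1m lower, but no difference passed the test. limma, on log2(FPKM + 1) with Benjamini-Hochberg adjustment over 13984 symbols, called 0 of the 22 tested histone and slbp symbols (0% of all genes called), and 0 of the 22 had an unadjusted p under 0.05 (1.44% of all genes). All 11 tested replication-dependent symbols had a fitted difference above 0, with a median of 0.72, where 35.0% of all genes did and their median was −0.30. That count rests on the entry of highest mean for each symbol. With each entry fitted on its own, 0 were called (0% of all entries), 28 of 42 were above 0 with a median of 0.21, and for H4 alone 13 of 23 with a median of 0.027. Without wild type shield replicate 2 the median of the 11 symbols turned to −0.21, and without wild type shield replicate 1 it was 1.43. The 9 variants and linker histones had a median of −0.25, close to that of all genes, and of 0.055 to 0.12 under the 3 other scalings tried, while the replication-dependent median stayed above 0 under each of them (1.06 to 1.13). Those scalings moved the median of all genes at shield from −0.30 to between −0.20 and 0.055.

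hist1h2a11 was counted as a replication-dependent H2A gene by its symbol alone, while RefSeq also lists it under the name h2ax3. Its entry of highest mean stood at 1.04 and 13.0 FPKM in the wild type at shield and 66.6 and 20.02 in the mutant at shield. At bud it stood at 16.9 and 11.9 in the wild type, with 90.05 and 18.7 in the mutant. For this entry the mutant libraries lay above the wild type ones at both stages. Its mean over all 8 libraries, by which it was chosen, was 29.8 against 28.8 for the next entry. The mutant values thus took part in the choice. For the other entries of the symbol the groups overlapped at each stage. The difference of the fitted entry at shield was 2.82 on the log2 scale (SE 1.36, limma adjusted p = 1), and 1.43 without wild type shield replicate 1. Summed over its 5 entries the symbol stood at 99.7 and 38.4 against 193 and 63.1, the groups overlapped, and the difference was 0.83. hist1h2a5, also an H2A gene, stood at 0 and 2.28 in the wild type at shield, 20.2 and 10.96 in the mutant at shield, 15.5 and 8.24 in the wild type at bud, with 39.6 and 1.71 in the mutant at bud (log2 difference at shield 3.14, SE 1.64, limma adjusted p = 1). hist1h2a5 was listed at 0 in wild type shield replicate 1, as were 34.4% of all tested genes. Without that library its difference was 2.28. For slbp2 the difference was −2.58 (SE 1.73, limma adjusted p = 1). In mutant shield replicate 1 slbp2 was listed at 0, as were 53.3% of all tested genes. Without that library the difference was 0.60, and without mutant shield replicate 2 it was −5.76. Groups that did not overlap were found for 5 symbols as higher (hist1h2a11, hist1h2a5, hist1h2ba, hist1h2a2 and h3f3d), or 22.7% of the members where 4.25% of all genes were. As lower there was h1m alone, or 4.55% where 12.2% of all genes were. With each entry taken on its own, 5 of 42 replication-dependent entries were higher (11.9%, against 4.31% of all entries). As lower there were 4 (9.52%, against 12.1%), all of them H4 entries. After rescaling without the mitochondrial entries hist1h2ba overlapped, with 42.4 and 2.41 beside 72.9 and 37.0, and the other symbols named as higher stayed apart.

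Genotype at bud makes the same comparison at the end of gastrulation. The linker histone h1m, the H3 gene hist2h3c, h2az2a and slbp stood lower in both mutant libraries, and slbp2, h3f3b.1 and h2ax higher, with none past the test. limma called 0 of the 22 symbols (0% of all genes), and 1 of the 22, h1m, had an unadjusted p under 0.05 (4.84% of all genes). The log2 difference of h1m was −1.90 (SE 0.81, limma adjusted p = 0.959), with −0.41 without mutant bud replicate 2 and −3.38 without mutant bud replicate 1. At shield it was −0.46 (SE 0.81, limma adjusted p = 1), or −0.12 to −0.058 under the 3 other scalings. hist2h3c had a difference of −1.78 (SE 0.98, limma adjusted p = 0.959), which lay between −2.42 and −1.14 when any 1 library was left out, the latter without wild type bud replicate 1. slbp2 had a difference of 2.495 (SE 1.73, limma adjusted p = 0.959), and 1.39 without mutant bud replicate 1. Beyond these, the groups did not overlap in FPKM for h3f3b.1, h2ax and hist1h2a11 as higher and for h2az2a, slbp and hist1h2a6 as lower. With slbp2 as higher and h1m and hist2h3c as lower this makes 4 symbols (18.2%) and 5 (22.7%), where 8.19% and 28.9% of all genes were higher and lower.

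The replication-dependent class had no stable direction at bud. Its median difference was 0.17, with 6 symbols above 0 and 5 below, against −0.51 over all genes. Without mutant bud replicate 2 it was 1.71, and without mutant bud replicate 1 it was −1.10. Variants and linker histones had a median of −0.86, with 3 above 0 and 6 below. That value was 1.03 without mutant bud replicate 1, and 0.12 after quantile normalization.

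**Figure D5:**
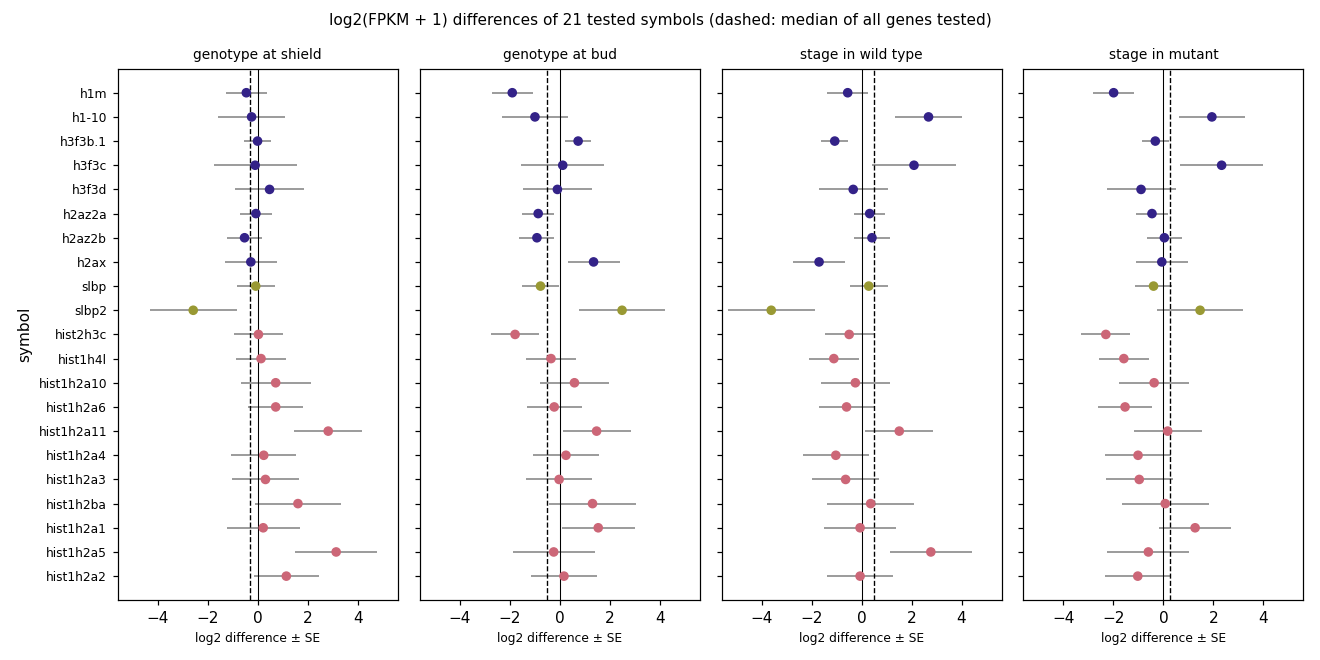
log2(FPKM + 1) differences (points, with bars of 1 SE) of 21 tested symbols in 4 comparisons, mutant minus wild type or bud minus shield, with the median of all genes as a dashed line. Blue points are variants and linker histones, olive points stem-loop binding proteins and red points replication-dependent histones. None passed the test, and slbp2 and hist1h2ba have the widest bars of those shown.

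Over both stages, which uses all 8 libraries for genotype, limma called 0 of the 22 symbols (0% of all genes), and 1, hist1h2a11, had an unadjusted p under 0.05 (4.27% of all genes). It differed by 2.15 on the log2 scale (SE 0.96, limma adjusted p = 0.983), and by 0.95 when its entries were summed. h1m had a difference of −1.18 (SE 0.58, limma adjusted p = 0.983), and h2az2b of −0.72 (SE 0.50, limma adjusted p = 0.983). Without mutant bud replicate 2 these were −0.44 and −1.14, and without mutant bud replicate 1 they were −1.92 and −0.29. Apart in both stages in FPKM were hist1h2a11 as higher, 1 of 22 where 0.422% of all genes were, and h1m as lower, 1 of 22 where 4.45% were. After rescaling without the mitochondrial entries neither stayed apart in both stages. hist1h2a11 then overlapped at bud, with 34.3 and 23.9 for wild type beside 188 and 31.4 for the mutant, and h1m overlapped at shield. For the summed entries of hist1h2a11 the groups overlapped at both stages, with 73.8 and 39.9 FPKM for wild type at bud beside 357 and 37.3 for the mutant.

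Bud against shield in wild type follows PGCs through gastrulation. The oocyte-type slbp2, the H3.3 gene h3f3b.1, h2ax and h1m stood lower in both bud libraries and the somatic linker histone h1-10 higher, with none past the test. limma called 0 of the 22 symbols (0% of all genes), and 0 had an unadjusted p under 0.05 (3.34% of all genes). The smallest p belonged to slbp2 (log2 difference −3.61, SE 1.73, limma adjusted p = 1), and leaving out any 1 library kept it between −4.05 and −3.18. The linker histone h1-10 had a difference of 2.68 (SE 1.32) and h3f3b.1 of −1.07 (SE 0.53), each with a limma adjusted p of 1. Libraries did not overlap for 4 symbols as higher at bud, h1-10, hist1h2a5 and h2az2a among them, 18.2% of members where 29.1% of all genes were. h1-10 reached the filter level of 1 FPKM only in bud libraries, so it was tested through the stage where it is high. Its higher level at bud is thus description only. After rescaling without the mitochondrial entries h2az2a overlapped, with 1848 and 1912 at shield beside 2095 and 1799 at bud. They did not overlap for slbp2, h3f3b.1, h2ax, hist1h2a4 and h1m as lower, 22.7% where 9.88% of all genes were. Across entries, 32 of 42 replication-dependent entries had a difference below 0 (median −0.51, against 0.50 for all entries). The symbol median of −0.25 had no stable direction. It was 0.33 without wild type shield replicate 1 and −1.39 without wild type shield replicate 2. Leaving out a wild type bud library gave −0.71 for replicate 1 and 0.22 for replicate 2.

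In the mutant, h1m and hist2h3c stood lower in both bud libraries than in both shield libraries, again with none past the test. Bud against shield gave 0 calls among the 22 symbols (0% of all genes, limma), and 2 had an unadjusted p under 0.05 (6.64% of all genes). h1m had a difference of −1.99 (SE 0.81, limma adjusted p = 0.731), which was −0.51 without mutant bud replicate 2 and −3.47 without mutant bud replicate 1. hist2h3c had one of −2.31 (SE 0.98, limma adjusted p = 0.731), with −1.06 without mutant shield replicate 1 and −3.55 without mutant shield replicate 2. Libraries did not overlap for 2 symbols as higher, hist1h2a1 among them (9.09% of members, 14.7% of all genes) and for h1m, hist2h3c, hist1h4l, hist1h2a6 and hist1h2a2 as lower (22.7% of members, 8.76% of all genes). After rescaling without the mitochondrial entries hist1h2a1 overlapped, with 30.3 and 21.7 at shield beside 80.5 and 19.8 at bud. The symbols named as lower stayed apart. The replication-dependent median of −0.97 became 0.71 without mutant bud replicate 2, −1.86 without mutant bud replicate 1 and −0.19 without mutant shield replicate 1. This comparison and those of genotype share libraries.

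Whether the genotype difference changes between stages was asked by the interaction, where limma called 0 of the 22 symbols (0% of all genes) and 0 had an unadjusted p under 0.05 (1.42% of all genes). slbp2 had the smallest p (5.08, SE 2.45, limma adjusted p = 1.00), followed by hist1h2a5 (−3.37, SE 2.32) and hist2h3c (−1.81, SE 1.38), each with an adjusted p of 1.00. The genotype difference of slbp2 was below 0 at shield and above 0 at bud. Its interaction was 1.89 without mutant shield replicate 1 and 8.26 without mutant shield replicate 2. That of hist1h2a5 was −1.42 without mutant bud replicate 2 and −5.33 without mutant bud replicate 1, and that of hist2h3c ranged from −3.05 without mutant shield replicate 2 to −0.57 without mutant shield replicate 1.

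Genes that serve histones were not called either. Of 18 tested genes of histone mRNA processing and transcription, 40 of histone chaperones and 51 of DNA replication, limma called 0 in each direction in each of the 6 comparisons. In each of these comparisons 0% of all genes were called, so the counts do not set the lists apart. slbp and slbp2 belong to the first of these lists. At shield the medians of the 3 lists were −0.78, −0.50 and −0.35 beside −0.30 for all genes, with 13 of 18, 32 of 40 and 34 of 51 genes below 0. Most genes lay below 0 there, since only 35.0% of all genes were above it. At bud they were −0.30, −0.070 and −0.029 beside −0.51. Between stages in the mutant, mRNA processing and chaperone genes had medians of 1.33 and 1.31 beside 0.25, and replication genes one of 0.016. In mutant shield replicate 1, 6 of the 18 mRNA processing genes and 10 of 41 chaperone genes were listed at 0, against 0 and 2 in replicate 2. At bud these numbers were 4 and 7 in mutant replicate 1, against 0 and 1 in replicate 2. The part of single libraries in these medians was not tested. In wild type the 3 medians were 0.68, 0.68 and 0.11 beside 0.51.

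Single genes of these lists with a small unadjusted p varied with the library. npm1a, a nucleolar histone chaperone, stood at 260 and 495 FPKM in the wild type at shield, 188 and 13.7 in the mutant at shield, 324 and 532 in the wild type at bud, with 412 and 978 in the mutant at bud. nasp, which binds H3 and H4 before deposition, stood at 10.4 and 20.96, 55.6 and 127, 14.3 and 21.1, and 26.7 and 8.51 in the same order. The shield groups did not overlap for either gene, with npm1a lower and nasp higher in the mutant. Of all genes, 12.2% were lower and 4.25% higher in this way. cdc6, which loads the replicative helicase, stood at 74.7 and 185, 25.5 and 148, 20.96 and 17.6, and 55.3 and 66.4. In wild type both bud libraries lay below both shield libraries for cdc6, where 9.88% of all genes were lower. Each of these genes was picked for a small p in its list, so such separation was partly set by the choice.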

How the data were processed

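PGC samples of 4 groups with 2 libraries each were compared. The authors deposited 1 table of FPKM, with no coordinates. Per the submitters' processing notes, the tools were STAR 2.5.3a, Trim Galore and Cufflinks 2.2.1, with the build danRer11. The annotation is not given in the sources used here. Depth is unknown: of the values above 0, 1.19% lay under 0.001 FPKM, so whole reads could not be read from them, and no counting interval is given. Entries with a missing value (2, none of them histones) were left out. Of 545 symbols with several entries, the entry of highest mean was fitted. Symbols that reached 1 FPKM in 2 or more libraries, 13984 in all, were fitted as log2(FPKM + 1) with limma-trend (limma 3.58.1, R 4.3.3) on 4 group means, with 4 residual and 15.4 moderated degrees of freedom. Calls were two-sided, at 0.05 after Benjamini-Hochberg adjustment. P-values rest on the spread between the 2 libraries of a group, pooled over the 4 groups and moderated across genes. The labels do not say whether the libraries of a group came from separate clutches. The fit was tested on simulated data. Recovery of planted changes was required only at a small set spread, not at the spread of these libraries. The test thus does not show which differences could have been found here. Figures used Python 3.11.15 and matplotlib 3.10.9.

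Named with values were linker, variant and slbp genes that passed the filter with a mean FPKM of at least 5, the 8 highest replication-dependent symbols, and the 3 smallest p in each comparison. Examples from the pathway lists were chosen after their values were seen. Members and lists were chosen with earlier results of these data known. RefSeq's gene table matched 22 of the 24 symbols and was used for names only. No sequences are shown. Alternatives changed the pseudocount, filter, scaling, merging of entries, libraries and a replicate block. The fit of every entry on its own and the class sums rescaled without mitochondrial entries were added after seeing the data. The values of 1 member are not reported here.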

Additional observations from a re-analysis of the deposited data

How the results depend on the processing

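No histone or slbp symbol was called in any of the 6 comparisons under any alternative run. Counts over all genes, 0 in each comparison, did move. Genotype at bud gave 237 calls with mutant shield replicate 1 left out along with mutant bud replicate 2. Over both stages 1 gene was called with the filter at FPKM of 5. For stage in the mutant, 3 were called with that filter, 8 after median-of-ratios scaling, 7 after quantile normalization and 6 with mitochondrial entries removed. With the replicate block the counts were 1 over both stages, 5 for stage in the mutant and 1 for the interaction. The labels do not say that replicate numbers pair samples, and deviations of same-numbered libraries correlated at −0.012 to 0.33 over the 6 pairs of groups. Leaving out 1 library gave 0 to 2 calls at shield (2 without wild type bud replicate 2), 0 to 3 over both stages (3 without wild type bud replicate 1), 0 to 1 for stage in wild type (1 without wild type bud replicate 2) and 0 to 195 for stage in the mutant (195 without mutant shield replicate 2).

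Medians of the replication-dependent symbols ranged, with 1 library left out, from −1.10 to 1.71 for genotype at bud, −1.39 to 0.33 for stage in wild type and −1.86 to 0.71 for stage in the mutant. With mutant shield replicate 1 left out along with mutant bud replicate 2 they were 1.71 at bud and 0.57 for stage in the mutant. For variants and linker histones the median at bud was −0.28 with a pseudocount of 5, −0.090 when every library had to reach 1 FPKM and 0.12 after quantile normalization. Over both stages the last 2 settings gave 0.0085 and 0.074. For stage in wild type the filter on all libraries gave −0.33 and median-of-ratios scaling −0.16. For stage in the mutant, median-of-ratios, quantile and mitochondrial-free scaling gave −0.73, −0.80 and −0.78. Without that pair of mutant libraries it was −0.90, and −1.43 for the interaction. With 1 library left out the range was −1.23 to 1.03 at bud, −0.77 to 0.35 over both stages, −0.40 to 0.24 for stage in the mutant and −1.23 to 1.06 for the interaction. Of the named differences, slbp2 at shield changed sign, to 0.60, without mutant shield replicate 1 alone or with mutant bud replicate 2, and ranged from −5.76 to 0.60 with 1 library left out. The cause of these moves was not tested. A group left with 1 library was assumed to vary like the others.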
